A study of Mus musculus with 5 samples.

Results

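Mouse embryonic stem cells (ES cells) were compared with Day4 of their differentiation to spinal motor neurons (MNs), the stage at which the protocol yields MN progenitors (pMNs). The 2 samples, of 5 in the series, were taken by their labels: the wild-type ES cells, and the embryoid bodies (EBs, floating aggregates of differentiating cells) after 2 days of retinoic acid (RA). Both were labelled male and wild type with no allele or transgene named, and the ES line was not given in the labels. The treatment note has RA and Sonic hedgehog (Shh) applied between days 2 and 5, whereas the study's methods name SAG, a small-molecule agonist of the Shh pathway, so the Day4 EBs differ from ES cells in aggregation, time and both inducers at once. Day2 (8 h of RA), Day3 (1 day of RA) and Day7 (MNs, 5 days of RA) were the other arrays of the series and are cited here only to place the ES and Day4 values in their course. Total RNA of each time point was hybridized to 1 Agilent one-colour expression array, and the ES and Day4 arrays lay on the same slide. Since neither sample was replicated, no spread could be estimated and no test made, and a difference is given by its size alone. Of 19893 genes named on the array, 15834 were well above background on at least 1 of the 2 arrays and had a value.

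ES cells hold a network of transcription factors built around Oct4, Sox2 and Nanog that keeps all germ layer fates open, and leave it through a state that resembles the post-implantation epiblast. RA then gives neural cells the identity of the hindbrain and cervical spinal cord by switching on 3′ Hox genes in order, and Shh, which in the embryo comes from the notochord and floor plate, divides the ventral neural tube into progenitor domains. Each domain is set by pairs of transcription factors that repress one another: Nkx2-2 marks the p3 domain next to the floor plate, Olig2 the pMN domain above it, and Dbx1 and Dbx2 the interneuron domains above that. Neurons arise when proneural factors such as Neurog2 take progenitors out of the cell cycle, after which motor neurons switch on Isl1, Lhx3 and Mnx1.

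Levels are log2 intensities after quantile normalization, and a change is the Day4 level minus the ES level. A gene counted as raised or lowered when this change was at least 2-fold, which is 1 on the log2 scale. A gene not well above background on an array is called dim there. A change against a dim side was measured from that side's own value or, if this was lower, from the faintest probe that passed on the array (4.18 in ES cells and 4.05 at Day4), and is written as at least that size. From ES cells to Day4, 2693 genes (17.0% of those with a value) were raised and 2285 (14.4%) were lowered, and 7435 lay within 1.5-fold. Large rises outnumbered large falls: 310 genes were raised and 237 lowered at least 8-fold, and 36 were raised and 3 lowered at least 64-fold. Of the raised genes 732 were dim in ES cells, and of the lowered genes 382 were dim at Day4. The raised genes made up 54.1% of those changed, 45.8% when each array was instead shifted to its 75th percentile, and 9.53% with no normalization between arrays. The median change of all genes under these settings was 0.05, -0.11 and -1.07, so that every direction below is relative to the array as a whole.

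The ES and Day4 arrays were alike in quality but not in brightness. The shares of mouse spots well above background were 59.9% and 66.4%, the median processed intensities were 81.9 and 43.5, and the negative-control spots had raw medians of 61 and 31.5. No spot was saturated. Repeated spots of a probe had a median SD of 0.06 in ES cells and 0.05 at Day4 on the log2 scale, which covers error within an array only. Different probes of a gene gave a coarser check. Of 841 changed genes with another usable probe, that probe had the same sign in 735 and also passed 2-fold in 436, and in 16 it passed 2-fold the other way. The Day2 array stood apart from the rest, with 86.9% of its mouse spots and 68.4% of its spots for ERCC sequences, which are not from mouse, well above background, against 9.88% and 12.0% of ERCC spots in ES cells and at Day4.

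**Figure D1:**
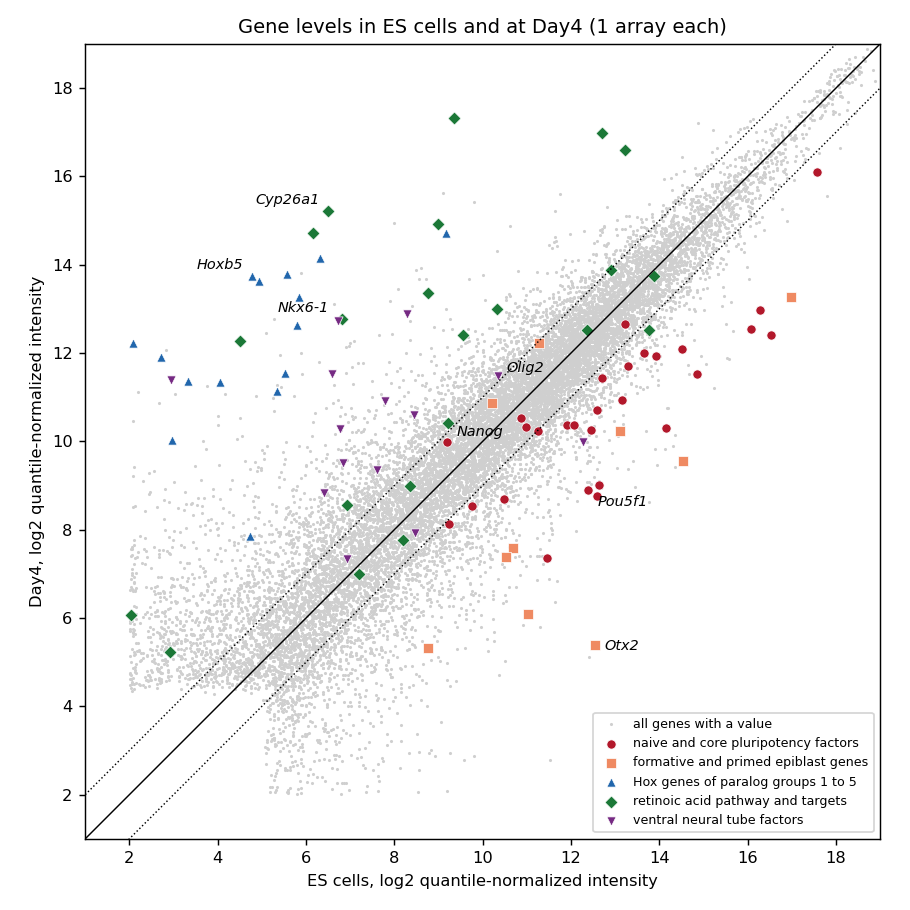
Level of each gene in ES cells (x axis) and at Day4 (y axis), as log2 quantile-normalized intensity from 1 array each; grey points are the 15834 genes with a value, colored points are members of 5 gene lists, the solid line marks no change and the dotted lines 2-fold. Pluripotency and epiblast genes lie below the lower dotted line in 32 of 38 cases, and all 15 Hox genes of paralog groups 1 to 5 lie above the upper one.

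The markers of ES cells and of progenitors moved in opposite directions, with exceptions in both sets. Pou5f1, which encodes Oct4, stood at 12.39 in ES cells and 8.90 at Day4, an 11.3-fold fall. Pax6, a neural progenitor factor that is repressed by strong Shh signalling, went from 6.77 to 10.28, an 11.4-fold rise, although its second probe rose by only 1.44 on the log2 scale. Olig2, the factor that defines pMNs, was already well above background in ES cells at 10.34, dipped to 7.87 on Day3 and reached 11.47 at Day4. Its rise from ES cells was thus 2.20-fold, while the Day4 level was the highest of the 5 arrays. Nkx6-1, which is expressed across the ventral domains including pMN, rose 64.4-fold from 6.72 to 12.73. Nanog was not lowered: it changed by 0.78 to a Day4 level of 9.98, after 6.79 on Day2 and 8.85 on Day3. Olig1, the neighbor and paralog of Olig2, fell from 12.28 to 9.99. Olig1 and Olig2 were thus well above background in ES cells, and Nanog at Day4. In these bulk samples, fewer cells of a type and less RNA per cell cannot be told apart.

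Of the 28 naive and core pluripotency factors, 24 were lowered, 4 changed by less than 2-fold and none was raised, and their median change was -1.84 against 0.05 for all genes. The largest falls were those of L1td1, an RNA-binding protein of pluripotent cells, from 16.53 to 12.40 (17.6-fold), and of Tcl1, an activator of Akt, from 11.45 to 7.37 (17.0-fold). Nr0b1, a nuclear receptor that interacts with Oct4, fell 14.3-fold from 12.60 to 8.76. Tdgf1, the Nodal co-receptor Cripto, fell 14.3-fold as well, and its other probes fell by 5.83 to 6.06 on the log2 scale. The naive factors were lowered to different degrees. Klf4 fell from 12.63 to 9.02 (12.2-fold) and had reached 8.66 on Day2, Esrrb fell from 14.51 to 12.10 (5.33-fold), Klf2 fell 3.17-fold, Tfcp2l1 2.90-fold and Prdm14 2.17-fold. Zfp42 (Rex1), a much used marker of the naive state, fell only from 11.26 to 10.25, which is 2.03-fold and at the edge of the rule. Sox2, shared by ES cells and neural progenitors, fell 2.40-fold from 12.70 to 11.44. The members that stayed within 2-fold were Nanog, Tbx3, the zinc finger protein Sall4 and the imprint regulator Zfp57, with changes of 0.78, -0.35, -0.57 and -0.64. Many of the lowered genes remained bright at Day4, Dppa5a at 16.11 and Utf1 at 12.55 among them, and all 28 were well above background on both arrays.

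The genes of the formative and primed epiblast had the lowest median of the 31 lists. Of 10 measured, 8 were lowered and none was raised, with a median change of -3.30. Otx2, which drives exit from the naive state and later marks forebrain and midbrain, fell 143-fold, from 12.55 in ES cells to 8.76 on Day2, 6.10 on Day3 and 5.39 at Day4. It was among the 3 genes lowered at least 64-fold. Pou3f1 (Oct6) went from 14.55 to 9.56 and Fgf5, the classical epiblast marker, from 11.04 to 6.10, falls of 31.7-fold and 30.6-fold. The de novo methyltransferase Dnmt3b fell 13.1-fold, from 16.98 to 13.27. Zic2 and Zic5, zinc finger factors of the epiblast and dorsal neural tube, fell 8.63-fold and 11.0-fold. The high ES levels of Otx2, Fgf5 and Pou3f1 were measured on the same array as high levels of Klf4 and Esrrb. Dnmt3a and Sall2 were the members within 2-fold, at changes of 0.66 and 0.96.

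Of the pathways that act in ES cells, FGF genes were lowered most often, and Wnt genes were raised more often than lowered. Over all genes with a value, 17.0% were raised and 14.4% lowered. In the FGF pathway, which drives exit from naive pluripotency through ERK, 10 of 19 genes were lowered and 2 were raised, with a median of -1.16. Fgf4, the ligand ES cells make themselves, fell 21.3-fold from 14.31 to 9.90. Many feedback inhibitors and targets of the pathway fell with it, Spry4 12.2-fold, Etv4 10.8-fold, Etv5 8.99-fold and Spry2 6.26-fold, but Dusp6, Spry1 and Egr1 stayed within 2-fold at -0.47, -0.90 and -0.42. The receptors Fgfr2 and Fgfr3 rose by 1.21 and 1.59 on the log2 scale. Among 17 Nodal and BMP genes, 7 were lowered and 3 were raised, with a median of -0.29. Lefty2 and Lefty1, Nodal's feedback inhibitors, fell 7.36-fold and 5.31-fold, and Smad7 fell 4.20-fold. The BMP branch was mixed: Bmp2 rose 16.5-fold from 5.85 to 9.90 and Id3, a BMP target, rose 5.51-fold, while Id1, Id2 and Id4 had changes of 0.22, 0.56 and -0.68 and Bmp4 fell 3.16-fold. Of 9 LIF pathway genes, 3 were lowered, 1 was raised and 5 stayed within 2-fold, with a median of 0.08. The receptor gene Lifr fell 3.98-fold on its brightest probe, with changes of -0.85 and -0.17 on others. The targets Socs3 and Pim3 fell 4.10-fold and 2.30-fold, and Jak2 was raised 2.72-fold. In the Wnt list, 9 of 22 genes were raised and 3 lowered with a median of 0.78. The receptor gene Fzd2 rose 6.94-fold and the feedback target Axin2 2.53-fold, while Lef1 and the ligand Wnt3 fell 8.79-fold and 6.40-fold.

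**Figure D2:**
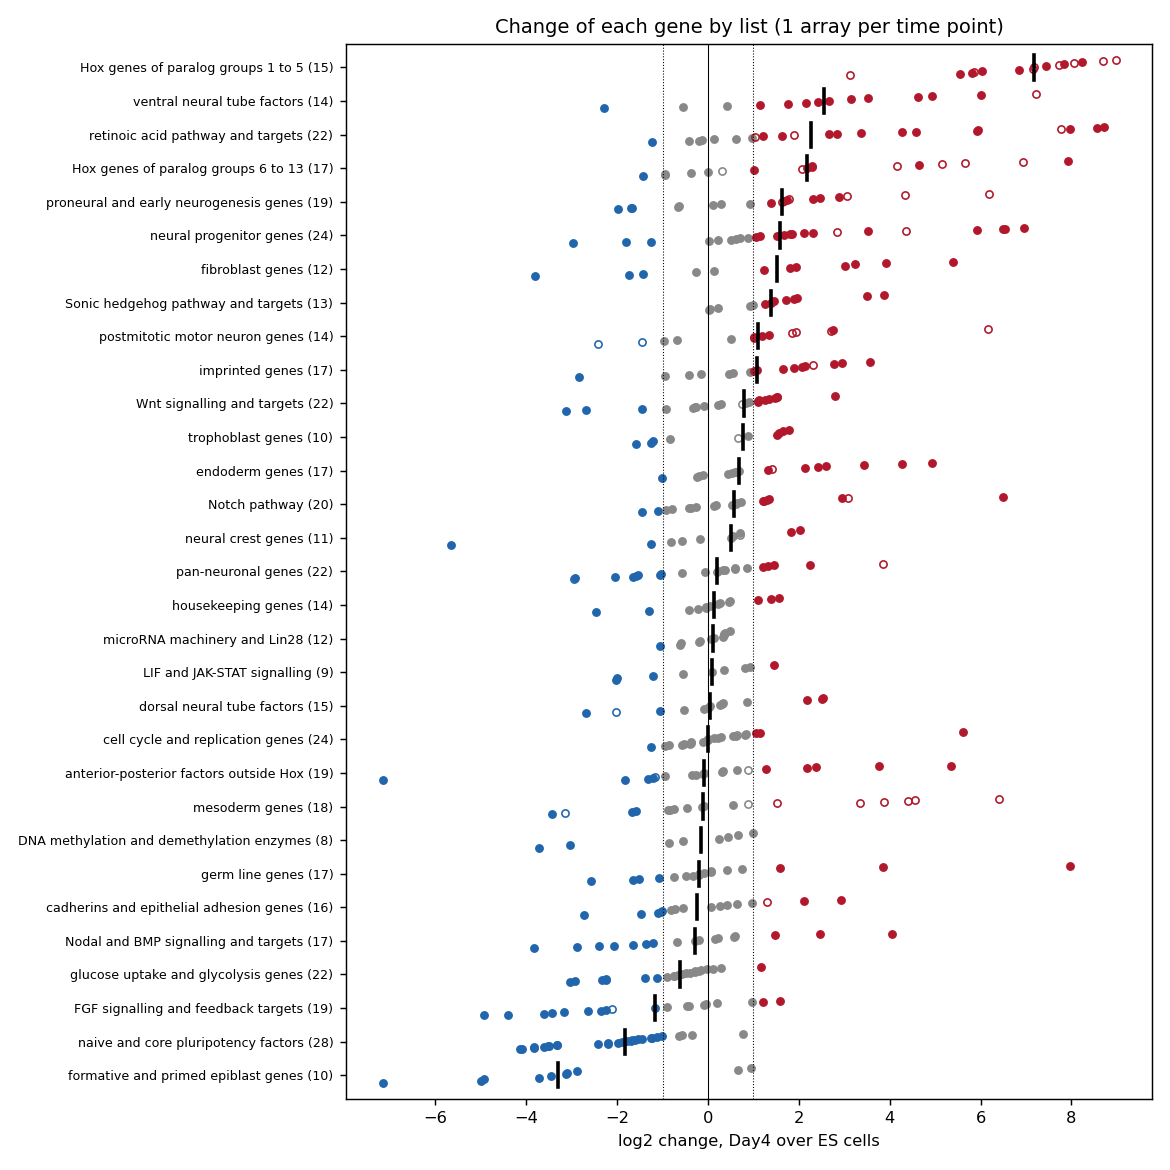
Log2 change from ES cells to Day4 (x axis) of each gene in 31 lists (y axis; the number of genes with a value in parentheses), from 1 array per time point; red points were raised and blue points lowered at least 2-fold, open points are bounds, black bars are list medians and dotted lines mark 2-fold. List medians run from -3.30 for epiblast genes to 7.18 for Hox genes of paralog groups 1 to 5.

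Of 24 neural progenitor genes, 15 were raised, 3 were lowered and 6 changed by less than 2-fold, and the median change was 1.59. The nuclear receptors Nr2f1 and Nr2f2 (COUP-TFI and COUP-TFII) were raised most. Nr2f1 went from 8.00 in ES cells to 13.10 on Day3 and 14.94 at Day4 (123-fold), and its second probe rose by 7.06 on the log2 scale. Nr2f2 went from 5.41 to 11.96 (93.4-fold). Hes5, the Notch effector of neural stem cells, rose 89.7-fold from 6.63 to 13.11, with a Day3 level of 9.63. Zbtb16 (Plzf), an early neural progenitor factor, rose 60.5-fold and had reached 11.06 by Day3. The POU factor Pou3f2 was dim in ES cells and was raised at least 20.6-fold. Structural genes of neuroepithelium changed less: Cdh2 (N-cadherin) rose 4.30-fold, Vim 3.59-fold and Ncam1 2.85-fold, and Nes, which encodes nestin, changed by 0.52. The SoxB1 factor Sox3 rose 3.48-fold. Sox1, the usual marker of neural commitment, changed by 0.61 on its brighter probe, from 9.44 to 10.05, and by 2.43 on the other. The brighter Msi1 probe changed by 0.01 and its other probe by 2.96, and Zic1 fell 3.47-fold on its brighter probe while the other rose by 1.24 on the log2 scale, so that the direction of these genes rests on the probe. Fabp7, a radial glia gene, had a change of 0.70, and Ncan, an extracellular matrix gene of the nervous system, fell 7.79-fold.

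The ventral neural tube factors had the next highest median of the 31 lists after the 3′ Hox genes. Of 17, 14 had a value, 11 were raised and 1, Olig1, was lowered, and the median was 2.55. By domain, from ventral to dorsal, the floor plate factor Foxa2 rose 30.6-fold from 6.59 to 11.52, and its second probe rose by 4.47 on the log2 scale. Shh, which the floor plate also makes, had no value: it was dim on both arrays, at 3.01 at Day4, and was bright on Day7 at 12.71. The p3 pair was divided. Nkx2-9 rose 24.5-fold from 8.28 to 12.89, whereas Nkx2-2 had a level of 8.47 in ES cells and 7.92 at Day4. Nkx6-2 rose 6.35-fold and Irx3, which bounds the pMN domain dorsally, rose 8.83-fold. Dbx1, the factor of the p0 domain, was dim in ES cells, stood at 9.30 on Day3 and 11.39 at Day4, a rise of at least 148-fold, and was again dim on Day7. Dbx2 rose 5.37-fold. Factors of the floor plate, of p3, of pMN and of the Dbx domains were thus measured together in the Day4 EBs.

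Response genes of the Shh pathway rose modestly beside these factors. Of 14 genes, 13 had a value, 8 were raised, none was lowered and the median was 1.39. The co-receptor genes Gas1 and Boc, which are known to be repressed by strong Shh signalling, rose most, from 7.50 to 11.37 (14.6-fold) and from 6.43 to 9.92 (11.3-fold) on their brightest probes, while other probes of Gas1 rose by 0.94 and 2.81 on the log2 scale. Ptch1 and Hhip, the receptor and the ligand-binding protein that are direct targets, rose 3.87-fold and 3.71-fold. Gli1, the target most used as a readout, was bright in ES cells at 11.88 and stood at 12.81 at Day4, a change of 0.93. Gli2 and Gli3 rose 3.27-fold and 2.39-fold, and Smo 2.73-fold by its brighter probe and by 0.04 on the log2 scale by the other. Of the dorsal neural tube factors, which BMP and Wnt signals induce, 15 of 18 had a value and 3 were raised, 3 lowered and 9 within 2-fold, with a median of 0.04. The shares over all genes with a value were 17.0% raised and 14.4% lowered. Msx1 rose 5.80-fold, Msx3 5.65-fold and the ligand Bmp7 4.55-fold. Gsx1 fell 6.41-fold, Atoh1 at least 4.09-fold and the Wnt agonist Rspo1 2.07-fold. Pax3, a marker of dorsal progenitors, had a change of 0.02, and Pax7 was dim on both arrays.

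**Figure D3:**
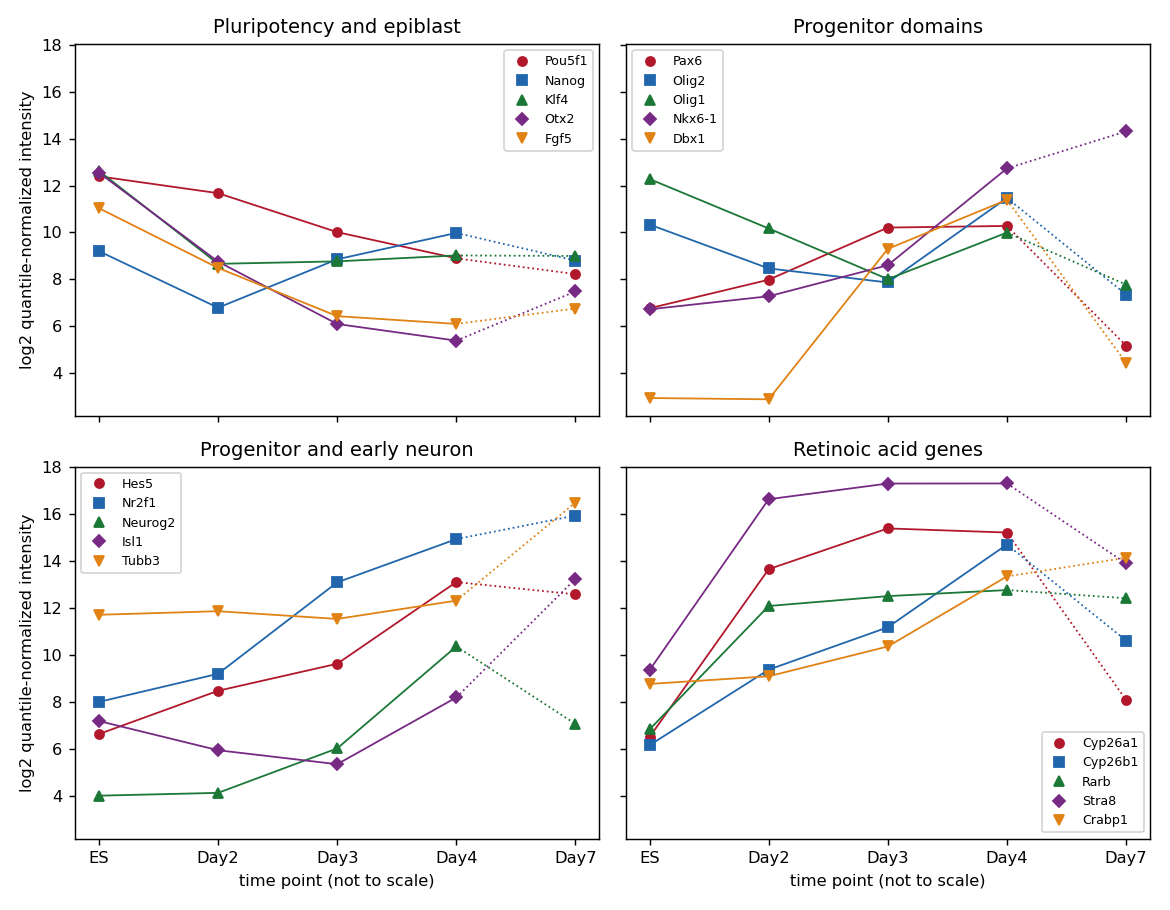
Log2 quantile-normalized intensity (y axis) of 20 genes at each time point (x axis, not to scale), 1 array per point; solid lines join the 4 arrays of the slide that held ES cells and Day4, and dotted lines lead to Day7 on the other slide. Otx2 and Fgf5 fall in steps to Day4, Olig2 and Olig1 dip on Day3 before their Day4 values of 11.47 and 9.99, and Neurog2 reaches 10.37 at Day4.

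Hox genes of paralog groups 1 to 5 had the highest median of the 31 lists. All 15 were raised, with a median of 7.18, and 8 of them were dim in ES cells. Hoxb5 rose at least 503-fold, from 4.78 to 13.76, Hoxc4 at least 413-fold, from 4.94 to 13.63, and Hoxa5 at least 265-fold, from 2.09 to 12.23. Among those measured on both arrays, Hoxb2 rose 302-fold, Hoxb4 228-fold, Hoxd4 172-fold and Hoxa3 115-fold. These genes give hindbrain rhombomeres and the cervical cord their segmental identity. The smallest rise in the set was that of Hoxd1, at least 8.71-fold, from 4.72 to 7.85. Hoxd3 and Hoxd4 were late, at 2.77 and 6.16 on Day2, 8.70 and 11.03 on Day3, and 10.03 and 13.27 at Day4. Under normexp background correction the median of these 15 genes was 5.37.

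Of the 24 genes of paralog groups 6 to 13, which pattern the brachial cord and regions caudal to it, 17 had a value and 11 were raised, with a median of 2.17. Hoxb6 rose 243-fold, from 5.88 to 13.81, and Hoxb7 25.0-fold, from 6.63 to 11.28. Hoxb8, Hoxc9 and Hoxb9 rose at least 123-fold, 50.1-fold and 35.5-fold, to 11.12, 9.83 and 9.33. Hoxc8, a brachial gene that opposes Hoxa5 in MNs, stood at 2.69 in ES cells and 6.46 at Day4, a rise of at least 4.88-fold. Hoxa6 was at 5.90 on both arrays, and Hoxa9 was at 6.91 and 5.96. At the caudal end, Hoxa10, Hoxc10, Hoxd10, Hoxa11, Hoxc11, Hoxd11 and Hoxa13 were dim on both arrays. Hoxb13 rose 2.01-fold, from 7.44 to 8.45, Hoxd13 fell 2.70-fold and Hoxc13 had a change of -0.36. Hoxc12 and Hoxd12, each dim on 1 of the arrays, had bounds of -0.94 and 0.31. Within groups 6 to 9, 10 of 12 genes were raised, and Hoxa6 and Hoxa9 were the exceptions. This list moved with the processing, to a median of 0.87 under normexp and 1.01 when both arrays had to be well above background.

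**Figure D4:**
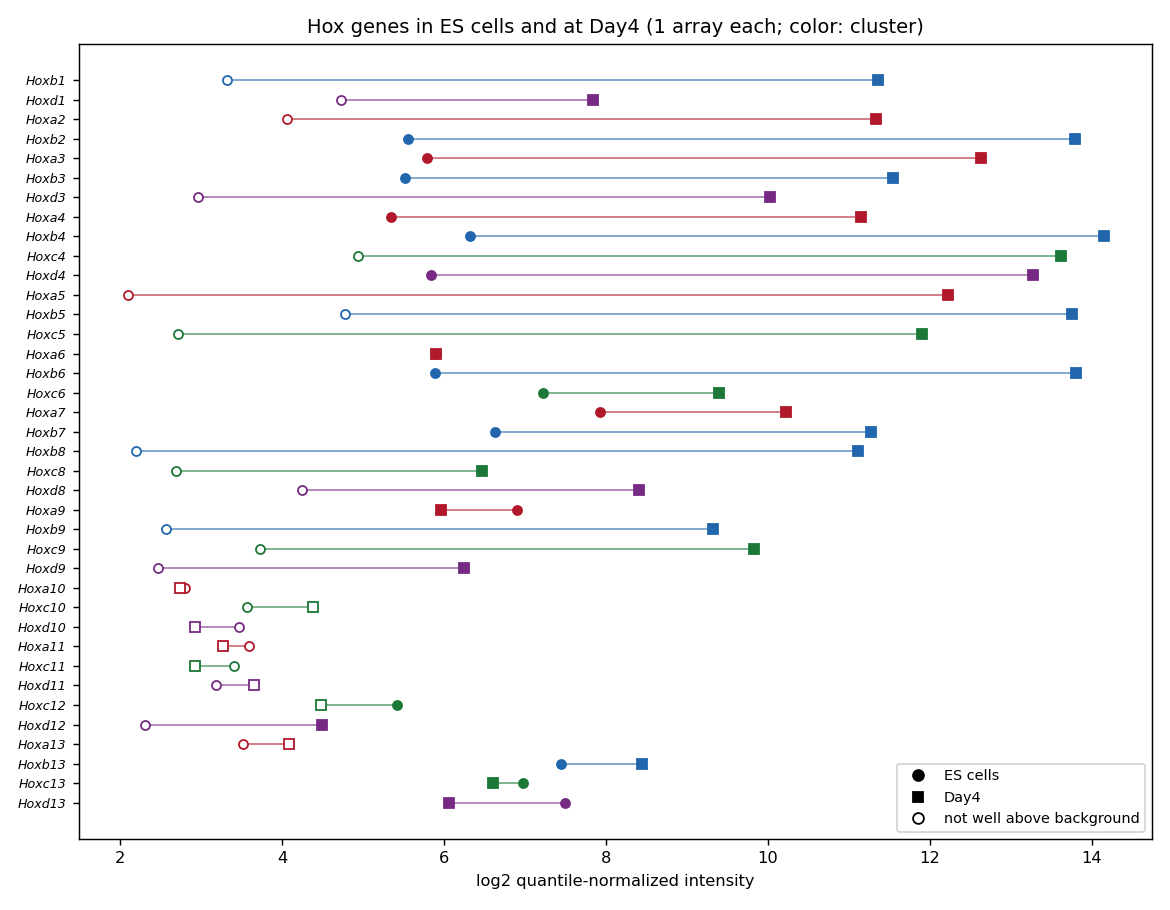
Log2 quantile-normalized intensity (x axis) of 38 Hox genes (y axis, by paralog group) in ES cells (circles) and at Day4 (squares), 1 array each; open symbols mark dim levels and color marks the cluster. The spans of groups 1 to 5 run rightward from ES cells to Day4 in every case, and 7 genes of groups 10 to 13 are open on both arrays.

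Cofactors of Hox proteins rose as well, but most axial factors outside the clusters did not. Of 23 anterior-posterior factors outside Hox, 19 had a value, 5 were raised, 5 were lowered and the median was -0.09. Meis2 and Meis1, TALE homeodomain partners of Hox proteins, rose 40.9-fold (8.09 to 13.44) and 13.5-fold (10.02 to 13.77), and Meis3 rose 4.54-fold. Cdx1, a caudal factor that activates Hox genes, rose 5.22-fold and was higher on Day2 (13.82) than at Day4 (11.45). On the rostral side, the midbrain gene En2 fell 2.51-fold along with Otx2, and the forebrain gene Six3 had a change of -0.96.

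Several genes that carry, degrade or answer RA rose by large amounts, and those that make it changed less. Of 22 genes, 15 were raised and 1 was lowered, with a median of 2.28. Cyp26a1 and Cyp26b1, the hydroxylases that degrade RA, went from 6.50 to 15.22 (423-fold) and from 6.15 to 14.71 (378-fold). Their courses differed: Cyp26a1 stood at 13.66 on Day2 and 15.40 on Day3, and Cyp26b1 at 9.37 and 11.18. Dhrs3, which reduces retinaldehyde, rose 60.5-fold, and the cellular binding proteins Crabp1 and Crabp2 rose 24.0-fold and 19.4-fold. Stra6, the retinol transporter, was dim in ES cells and was raised at least 218-fold. Stra8, named for its stimulation by RA and known from meiotic entry in germ cells, rose 250-fold, from 9.36 to 17.32. The receptors diverged: Rarb, itself an RA target, rose 61.7-fold from 6.82 to 12.77, Rara had a change of 0.98 and Rarg fell 2.37-fold. The partner receptors Rxra, Rxrb and Rxrg had changes of -0.20, -0.13 and 0.14 on their brightest probes, and another probe of Rxrg had -3.07. Of the enzymes that make RA, Aldh1a2, which acts in somites and later in MNs, was at 8.19 and 7.76, Rdh10 had a change of 0.62, Aldh1a1 rose 3.11-fold and Aldh1a3 was raised at least 3.71-fold.

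Promoter sequences were searched for the direct repeat to which RA receptors bind as dimers with retinoid X receptors, because this list held the largest rises outside Hox. The DR5 element, a direct repeat of the receptor half-site with a spacer of 5 bases, was sought on either strand from 250 bases before to 50 bases after the gene start. In RefSeq promoters of GRCm38.p6 it occurred in 32 of 32851 windows (0.0974%), and in 2 of the 17 RA genes with a window, Rarb and Cyp26a1. They are shown 5′ to 3′ on the strand of the gene with 8 flanking bases, with the element in capitals. For Rarb it begins 53 bases before the start (chr14:16575505-16575537, minus strand), and for Cyp26a1 it lies in the opposite orientation and begins 32 bases before the start (chr19:37697768-37697800, plus strand).
Rarb: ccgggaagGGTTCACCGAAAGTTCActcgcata
Cyp26a1: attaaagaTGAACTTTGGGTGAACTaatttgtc
The genes that carry it were raised 61.7-fold and 423-fold. The octamer of Oct4, ATGCAAAT, occurred in 570 windows (1.735%) and in 1 of 18 pluripotency genes with a window, Zfp42 (chr8:43307180-43307203, minus strand), where it lies in the opposite orientation and begins 186 bases before the start.
Zfp42: gaagaggcATTTGCATaactgagc
The Gli motif GACCACCCA occurred in 83 windows (0.2527%) and in none of 10 Shh pathway genes with a window. These matches describe letters in a short window and not binding.

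Factors that take progenitors toward neurons were raised in part at Day4. Of 20 proneural and early neurogenesis genes, 19 had a value, 11 were raised, 3 were lowered and the median was 1.63, which was 0.76 under normexp and 0.61 when both arrays had to be well above background. Neurog2, the proneural factor of the pMN domain, was dim in ES cells, stood at 6.02 on Day3 and 10.37 at Day4, a rise of at least 72.9-fold, and was lower on Day7 at 7.06. Nhlh2 and Neurod4, which act downstream of proneural factors, rose at least 20.2-fold and 8.31-fold, from dim levels in ES cells. Ebf3 and Ebf2, factors of early neuronal differentiation, rose 7.41-fold and 5.50-fold. The lowered members were Neurod1 (3.94-fold), Neurog3 (3.26-fold) and Insm1 (3.20-fold), genes best known from endocrine and neuronal differentiation, which had levels of 9.34, 8.36 and 13.56 in ES cells. In the Notch pathway, through which nascent neurons hold neighbors as progenitors, 7 of 20 genes were raised and 2 lowered, with a median of 0.57. Beside Hes5, the receptor Notch1 rose 2.52-fold, the effector Hes1 2.33-fold and Heyl at least 8.43-fold. The ligands Dll1 and Dll3 had changes of -0.38 and -0.92, and Jag1 and the Hes1 antagonist Hes6 fell 2.14-fold and 2.74-fold.

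More motor neuron genes were raised than lowered, and general neuronal genes were not raised as a list. Of 14 postmitotic MN genes, 9 were raised and 2 lowered, with a median of 1.11 (0.22 with no normalization between arrays). Among all genes with a value, 17.0% were raised and 14.4% lowered. Of the 14 MN gene values 6 were bounds, and Mnx1 had no matched probe. Isl1 stood at 7.18 in ES cells, 5.34 on Day3 and 8.19 at Day4, a rise of 2.01-fold, against 13.25 on Day7. Lhx3 was at 8.99 and 9.50. Chat, which makes acetylcholine, rose at least 3.59-fold to 6.09, against 12.21 on Day7. Ret, a receptor of motor and autonomic neurons, rose 6.76-fold. Of 22 pan-neuronal genes, 5 were raised, 8 were lowered and 9 lay within 2-fold, with a median of 0.20. Tubb3 and Elavl3 had changes of 0.60 and 0.59, and both were above 15 on Day7, at 16.50 and 15.13. Dcx rose at least 14.3-fold by its brightest probe, to 8.02, and by 0.51 on the log2 scale by another. Stmn2, Ina and Nefl, genes of axons and the neuronal cytoskeleton, were bright in ES cells at 13.06, 13.35 and 12.54 and fell 7.61-fold, 4.12-fold and 3.01-fold. The signal of these neuronal genes was therefore not lowest in ES cells.

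Markers of other cell types that EBs can form were measured beside these results, and their part in them was not tested. Among mesoderm genes 18 of 20 had a value, 6 were raised and 4 lowered, the median was -0.10 (-0.79 when both arrays had to be well above background), and their summed intensity was 18525 in ES cells and 15088 at Day4, or 8188 and 3802 without Kdr and Foxc2. T and Eomes, markers of the primitive streak, fell at least 8.90-fold and 3.02-fold, and Mesp1 and Mixl1 were dim on both arrays. Genes of later mesoderm and mesenchyme were divided. The raised ones started from dim levels in ES cells, Foxc2 at least 84.8-fold, Foxc1 at least 23.4-fold, Meox1 at least 21.3-fold, Hand2 at least 14.6-fold and Pdgfra at least 10.2-fold. Tcf15, a factor of somites, fell 10.8-fold from 12.46 to 9.02 and Tal1, a factor of blood precursors, 3.21-fold, while Hand1, Nkx2-5, Kdr and Twist1 had changes of -0.83, -0.13, -0.08 and 0.55, and another probe of Kdr had -1.97. Of 12 fibroblast genes with a value, 7 were raised and 3 lowered, the median was 1.52, and the summed intensity went from 28085 to 112218. Tagln and Acta2, genes of smooth muscle, held 93.2% of the Day4 sum, and without them it went from 4310 to 7614. Tagln rose 3.82-fold from 14.52 to 16.45. Smooth muscle actin, Acta2, rose 42.1-fold from 8.49 to 13.89, Col1a2 rose 15.1-fold, Col3a1 9.38-fold and Col6a1 8.10-fold, while Col1a1 had a change of 0.12, Thy1, Dcn and S100a4 fell 13.9-fold, 3.33-fold and 2.69-fold, and Postn and Lum were dim on both arrays.

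Endoderm genes were raised in 8 of 17 cases and lowered in 1, with a median of 0.69 and a summed intensity of 80262 in ES cells and 133931 at Day4, or 8829 and 32177 without Sparc and Lamb1. Besides Foxa2, which the floor plate shares, Gata6 rose 19.2-fold from 6.17 to 10.43, Sox17 5.33-fold and the basement membrane genes Col4a2 and Col4a1 10.8-fold and 6.05-fold. Gata4 had a change of 0.64, and Afp, Apoa1 and Cer1 were dim on both arrays. Of 11 neural crest genes, 2 were raised and 2 lowered, the median was 0.50, and the summed intensity was 11709 and 6722, or 2980 and 2838 without Tfap2c and Ngfr. For this and the following lists, the shares over all genes with a value were 17.0% raised and 14.4% lowered. Sox10 and Tfap2a, which define the crest, had changes of -0.17 and 0.50, and Foxd3, a gene of both ES cells and crest, fell 50.4-fold. Among 10 trophoblast genes, 4 were raised and 3 lowered, with a median of 0.77 and summed intensities of 37557 and 92305, or 9509 and 7110 without Krt18 and Krt8. The raised ones were the keratins Krt7, Krt8 and Krt18 and Gata3, at 3.14-fold, 3.42-fold, 2.97-fold and 2.86-fold, while Cdx2 and Eomes were lowered and Elf5 had a bound of 0.66. Of 17 germ line genes with a value, 3 were raised (Stra8, the meiotic cohesin Rec8 at 14.5-fold, and Dazl at 3.01-fold) and 4 lowered, with a median of -0.20 and summed intensities of 29587 and 237430. Stra8 and Rec8 held 89.9% of the Day4 sum, and without them the sums were 25481 and 23916.

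Genes of cell structure and growth changed in part. The main cadherins moved in opposite directions: Cdh1 (E-cadherin) went from 13.79 to 12.69, a fall of 2.14-fold, as Cdh2 went from 10.94 to 13.04, and Cdh6 rose 7.65-fold. Epcam and the epithelial splicing factor Esrp1 fell 2.79-fold and 6.63-fold, and of 16 adhesion genes 3 were raised and 5 lowered. Cell cycle genes changed by less than 2-fold in 20 of 24 cases, with a median of 0.01, and the large exception was Ccnd2, a D-type cyclin of neural progenitors, which went from 9.79 in ES cells to 13.09 on Day3 and 15.41 at Day4, a rise of 49.1-fold. Ccne1 fell 2.39-fold. Mki67 and Ccnd3 were raised 2.08-fold and 2.20-fold, but without normalization between arrays their changes were -0.41 and -0.31. In glucose uptake and glycolysis, 7 of 22 genes were lowered and 1 was raised, with a median of -0.61. Those lowered included the pyruvate dehydrogenase kinase Pdk1 (8.23-fold), the lactate exporters Slc16a3 and Slc16a1 (7.57-fold and 4.77-fold), Hk2 (5.07-fold) and Ldha (4.77-fold). Gpi1, Aldoa, Tpi1, Pgk1, Pgam1, Eno1 and Pkm, enzymes of the central steps, had changes between -0.74 and -0.01.

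Chromatin, small RNA and imprinted genes closed the lists. Of 8 DNA methylation genes, Dnmt3b and its cofactor Dnmt3l (8.15-fold) were lowered, and none was raised: Dnmt1 had a change of 0.99 and Tet2 of -0.54, and Tet1 had no matched probe. Of 12 genes of the microRNA machinery 11 stayed within 2-fold, Dicer1 at -0.18 and Lin28a, which blocks let-7 maturation, at -0.59, and the exception was Trim71, lowered 2.07-fold. Of 17 imprinted genes with a value, 10 were raised and 1 lowered with a median of 1.08, which was -0.39 without normalization between arrays. Plagl1 rose 11.8-fold, Dlk1 7.73-fold, the growth factor Igf2 6.80-fold and Ndn 4.37-fold, and Phlda2, which restrains placental growth, fell 7.18-fold. Housekeeping genes had a median of 0.13, and 9 of 14 lay within 2-fold. Actb and Ppia changed by -0.04 and -0.22, but Hprt fell 5.55-fold and Tbp 2.47-fold, and B2m, Gusb and Ywhaz were raised 2.98-fold, 2.61-fold and 2.13-fold, the last of these with a change of -0.01 when no normalization was applied. As with Smo and Lifr, another probe lay within 2-fold for some of the genes called above, at 0.54 for Axin2, -0.34 for Ccne1, 0.96 for Mki67, -0.72 for Trim71, 0.76 for Plagl1, -0.35 for Tbp and 0.35 for Ywhaz.

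The lists were chosen with earlier results of these data known, so how many of the largest changes they hold is no support for them. Of the 15 largest rises measured on both arrays, 13 belonged to the lists above, Cyp26a1 first, and the others were Zfp703, a transcriptional corepressor, which rose 91.8-fold from 9.10 to 15.62, and Gm13043, which rose 69.6-fold. The largest bounds added Arg1, the urea cycle enzyme arginase, at least 238-fold. Of the 15 largest falls measured on both arrays, 4 were list members. Enpp2, which encodes autotaxin, went from 12.40 in ES cells to 5.11 at Day4 (157-fold) and was at 13.72 on Day7. Vrtn, a factor of vertebral number, was dim at Day4 and fell at least 179-fold from 11.53. The fatty acid transporter gene Slc27a2 fell 35.1-fold and the carbonyl reductase Cbr3 30.8-fold.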

How the data were processed

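Total RNA was labelled with Cy3 and hybridized by the authors to Agilent SurePrint G3 mouse arrays, 1 per time point. They deposited scanner output of Feature Extraction 10.5.1, whose intensity values were background-subtracted and detrended but not normalized between arrays, and a table of log2 values. Against log2 processed signals, that deposited log2 table differed by 1 constant per array, within 0.05 for at least 99.8% of probes; its column medians were -3.55 (ES), -2.62, -3.72, -3.54 (Day4) and -3.67. The 75th percentile of each column was 0 within rounding, so its scale is log2 against that percentile.

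After removal of control and outlier spots, log2 values were averaged per probe and the 5 arrays were quantile-normalized (limma 3.58.1, R 4.3.3; then Python 3.11.15, pandas 2.3.3, numpy 2.4.6, matplotlib 3.10.9). Of 55681 probes, 26294 matched RefSeq accessions of GRCm38.p6, used for names only. The brightest probe on average stood for its gene in 5337 genes with several. For 78 genes whose bright side did not pass the floor of the dim side, the change was entered as 0. Precision is limited by the number of arrays. The rule for a change, its bounds and the 2-fold call were checked with known changes placed on the real ES array. The other steps were not checked in this way.

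Members and all 31 lists were chosen with earlier results of these data known. Genes named were list members, the 15 largest measured changes each way and the 10 largest bounds each way. Alternatives were a 75th percentile shift, no normalization, quantile normalization over 4 or 2 arrays, normexp (offset 50), the deposited values, another detection flag, no filter, both arrays well above background, the mean over probes, and thresholds of 1.5-fold and 4-fold. Normexp used median spot signals, the column at hand. Some genes of the lists are counted but not reported by name here.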

Additional observations from a re-analysis of the deposited data

How the results depend on the processing

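No paired analysis was possible because neither ES cells nor Day4 had a second array, and for the same reason no replicate could be left out. With no normalization between arrays, 879 genes were raised and 8340 lowered, the median change of pluripotency factors was -3.10 and that of neural progenitor genes 0.50. That setting also turned the median of imprinted genes to -0.39 and the changes of Ccnd3 to -0.31, Jund to -0.36, Meg3 to -0.44, Mest to -0.39, Mki67 to -0.41, Sox11 to -0.11 and Ywhaz to -0.0112; no other alternative turned a called value. Normexp background correction gave 1789 raised genes, a threshold of 1.5-fold gave 4538 raised and 3861 lowered, and 4-fold gave 822 and 650. Under the other alternatives both counts stayed within 1.5 times of 2693 and 2285. Of the named genes outside the added families, 179 were raised and 132 lowered; without normalization 74 of the raised and 0 of the lowered fell short of 2-fold, whereas 172 and 132 passed it after the 75th percentile shift, and 152 and 119 under normexp. Of genes dim on an array, only a bound is known.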

Other observations

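Gene families outside the lists were picked after their values had been seen, and the counts below leave out members that were dim on both arrays. A member that was dim in ES cells has a value here only where it was bright at Day4, so that such counts lean toward rises. The 3 Zscan4 genes on the array, which mark a short-lived state of ES cells that resembles the embryo at the time its genome is switched on, were dim in ES cells, that is, not well above background, and bright at Day4. Zscan4f stood at 5.09 in ES cells, 9.87 on Day3, 12.46 at Day4 and 10.35 on Day7, a rise of at least 165-fold, and Zscan4c and Zscan4a rose at least 120-fold and 53.1-fold. Probes of these near-identical genes can share signal. Of 28 Pramel genes with a probe, a family expressed in early embryos and germ cells, 17 had a value, 12 of them as bounds. Of these 17 genes 12 were raised and 1 was lowered, and Pramel31 and Pramel16 rose at least 56.6-fold and 37.9-fold. Among those measured on both arrays only Pramel20 was raised (6.27-fold), and Pramel12, Pramel13, Pramel25 and Pramel34 stayed within 2-fold. Of 9 globin genes, 6 had a value and were raised, 3 of them as bounds, and Hbb-b2, Hbb-bh2 and Hbb-bs were dim on both arrays. Hbb-y and Hba-x, embryonic globins of primitive red cells, rose at least 181-fold and 103-fold, to 12.77 and 10.87, and Hbb-bh1 rose 36.6-fold, from 7.08 to 12.27. They were close to these levels on Day3, at 12.08, 10.75 and 12.52.

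Of 22 prolactin family genes, which placental trophoblast expresses, 14 had a value, 9 of them as bounds, and 9 were raised and none was lowered. Prl7d1 rose at least 32.9-fold from 2.08 to 9.22 and stood at 12.05 on Day7, and Prl2c5 rose 21.8-fold from 5.55. In the trophoblast list, 4 genes were raised and 3 lowered. Of 8 forkhead genes of the Foxb, Foxc and Foxd groups, 7 had a value, 4 of them as bounds, and 5 were raised and 1 lowered. Outside the lists, Foxb1, Foxd1 and Foxd2 rose at least 119-fold, at least 38.9-fold and 55.1-fold, Foxd4 had a change of 0.51 and Foxb2 was dim on both arrays.

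Immediate early genes, which cells switch on within minutes of growth factor or stress signals, were lowered in part. Of 18 genes, 16 had a value, 8 were lowered at Day4 and 3 raised, Fosl2 3.17-fold on its brightest probe (another had a change of -0.67), Atf3 2.96-fold and Jund 2.17-fold, and Egr3 and Nr4a3 were dim on both arrays. Fosb fell 20.6-fold, from 11.22 to 6.86, and had reached 6.21 on Day2. Arc fell 13.4-fold and Fos 10.7-fold, Fos from 11.75 in ES cells to 4.67 on Day2 and 8.33 at Day4. Jun and Ier2 changed by 0.39 and 0.33.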
